A study of Mus musculus with 12 samples.

Results

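The 9 genes described here, Mael, Ddx4, Tdrd1, Dazl, Stk31, Tex15, Asz1, Tex19.1 and Piwil2, belong to the piRNA pathway or to RNA regulation in germ cells. They were taken by name from a table of 26061 mouse genes, and all 9 were among the 14487 genes that passed the filter on low values. They were measured in E14 cells, a mouse embryonic stem (ES) cell line of 129/Ola background, grown without feeder cells on gelatin. The 12 libraries fell into 4 groups of 3: shSetdb1 in serum, shScr in serum, shSetdb1 in 2i and shScr in 2i. shSetdb1 is a short hairpin RNA against the histone methyltransferase gene Setdb1, and shScr is the control hairpin. Serum medium held fetal bovine serum and the cytokine LIF, and its cells are labelled primed. The 2i medium was serum-free and held N2, B27 and LIF with PD0325901 and CHIR99021, inhibitors of the kinases MEK and GSK3, and its cells are labelled naive. All 4 groups had been transduced with lentiviral pLKO.1 vectors, and harvested when puromycin selection, begun 48 hours after infection, had lasted 3 days. The labels name 1 knockdown hairpin and 1 cell line, and do not say whether a group's libraries are separate cultures. The p-values thus measure the spread between these libraries, which may be technical.

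piRNAs are small RNAs of germ cells that guide PIWI-family Argonaute proteins to transposon transcripts, and in the fetal male germ line they also direct DNA methylation to transposon copies. Their biogenesis takes place largely in nuage, granules beside mitochondria that hold PIWI, Tudor-domain and helicase proteins. Many genes of the pathway have CpG-rich promoters that are silenced in somatic cells by DNA methylation and by repressive histone marks. SETDB1 places H3K9 trimethylation and is recruited by several sequence-specific repressors. The promoters of many germline genes also carry an E-box or an E2F6-type motif, which a non-canonical Polycomb complex (PRC1.6) recognises in ES cells.

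Promoter sequences were available for 7 of the 9 genes from RefSeq (GRCm38.p6), all but Tex15 and Piwil2. The windows shown are the 250 bases before the annotated start, 5′ to 3′ on the gene's strand, with CACGTG (an E-box, the same on both strands) and GCGGGA or its reverse complement TCCCGC (an E2F6-type motif) in capitals. Stk31 and Mael are shown because their transcripts rose on knockdown, Ddx4 because it holds both motifs and differed between media, and Dazl because it holds neither.
Stk31: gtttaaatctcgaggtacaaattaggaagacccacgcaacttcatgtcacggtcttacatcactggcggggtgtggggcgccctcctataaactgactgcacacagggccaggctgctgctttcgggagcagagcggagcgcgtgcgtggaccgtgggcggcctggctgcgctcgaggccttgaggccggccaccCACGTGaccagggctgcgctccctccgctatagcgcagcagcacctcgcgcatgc
Mael: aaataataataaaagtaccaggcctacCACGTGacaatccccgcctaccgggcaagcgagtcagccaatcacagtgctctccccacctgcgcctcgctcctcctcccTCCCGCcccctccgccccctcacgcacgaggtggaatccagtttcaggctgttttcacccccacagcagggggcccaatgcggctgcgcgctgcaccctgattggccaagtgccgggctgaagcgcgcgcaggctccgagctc
Ddx4: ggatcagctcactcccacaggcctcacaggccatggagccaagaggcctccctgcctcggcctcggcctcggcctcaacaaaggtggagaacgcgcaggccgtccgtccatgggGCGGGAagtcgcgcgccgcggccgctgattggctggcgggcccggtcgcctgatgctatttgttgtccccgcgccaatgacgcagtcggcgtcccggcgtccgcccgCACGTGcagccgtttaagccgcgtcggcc
Dazl: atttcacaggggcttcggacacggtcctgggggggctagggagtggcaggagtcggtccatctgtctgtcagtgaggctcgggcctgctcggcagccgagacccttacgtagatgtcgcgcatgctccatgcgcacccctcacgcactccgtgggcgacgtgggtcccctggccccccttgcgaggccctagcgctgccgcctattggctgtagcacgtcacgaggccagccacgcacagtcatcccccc
The Stk31 window, the first of 2 in the table, lies at chr6:49395289-49395538 on the plus strand. The other 3 lie on the minus strand, Mael at chr1:166238745-166238994, Ddx4 at chr13:112652311-112652560 and Dazl at chr17:50293621-50293870. CACGTG was found in a window of 4 of the 7 genes (Mael, Ddx4, Tdrd1 and Stk31) and GCGGGA or TCCCGC in 3 (Mael, Ddx4 and Tex19.1), so that Mael and Ddx4 held both. The 2 motifs share no bases in these windows. These counts are per gene, and a gene can have more than 1 window. Among all 32851 RefSeq mouse promoter windows of this length, 6.0% held CACGTG, 16.9% held the E2F6-type motif and 1.4% held both. Counted likewise per window, the 7 genes had 10 windows, some of which overlap, with 60.0%, 30.0% and 20.0%. CpG dinucleotides numbered 31 in the Ddx4 window, 21 in Stk31, 20 in Dazl and 18 in Mael, against a median of 6 over all windows. A match describes the letters of the window and not a bound site.

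The targeted gene was checked first. Setdb1 had 418, 379 and 409 normalised reads in the serum shSetdb1 libraries, against 2959, 2237 and 1587 in serum shScr. In 2i it had 837, 610 and 340 in shSetdb1, against 3607, 2724 and 2253 in shScr. Setdb1 fell in both media, with log2 changes of -2.33 in serum (adjusted p = 0.00219) and -2.24 in 2i (adjusted p = 0.00173). Normalised reads are read counts divided by a size factor for depth, recovered from the deposited log2-scale values. The libraries held 4821181 to 15509401 reads in genes. The lowest total was that of 2i shSetdb1 library 3, and the next lowest was 9900012, in serum shScr library 3. With a size factor of 0.3616, 2i shSetdb1 library 3 has fewer reads than normalised reads for each gene detected. Its low values therefore rest on few reads. The part of this depth in its values was not tested. Structural RNAs (rRNA, tRNA and other small structural RNAs) took 15.3% to 69.3% of the reads in the repeat table. The highest share, 69.3%, was also that of 2i shSetdb1 library 3. The third library of each group had the highest share of its group, between 42.4% and 69.3%, and the second 2i shSetdb1 library stood at 55.3%. In 2i, and in serum shScr, Setdb1 was lower at a higher share, while in serum shSetdb1 it did not follow the share. The part of the share in the values of single libraries was not tested. The fall of Setdb1 passed in each of 22 alternative analyses in either medium, the fit with this share as a covariate included.

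**Figure D1:**
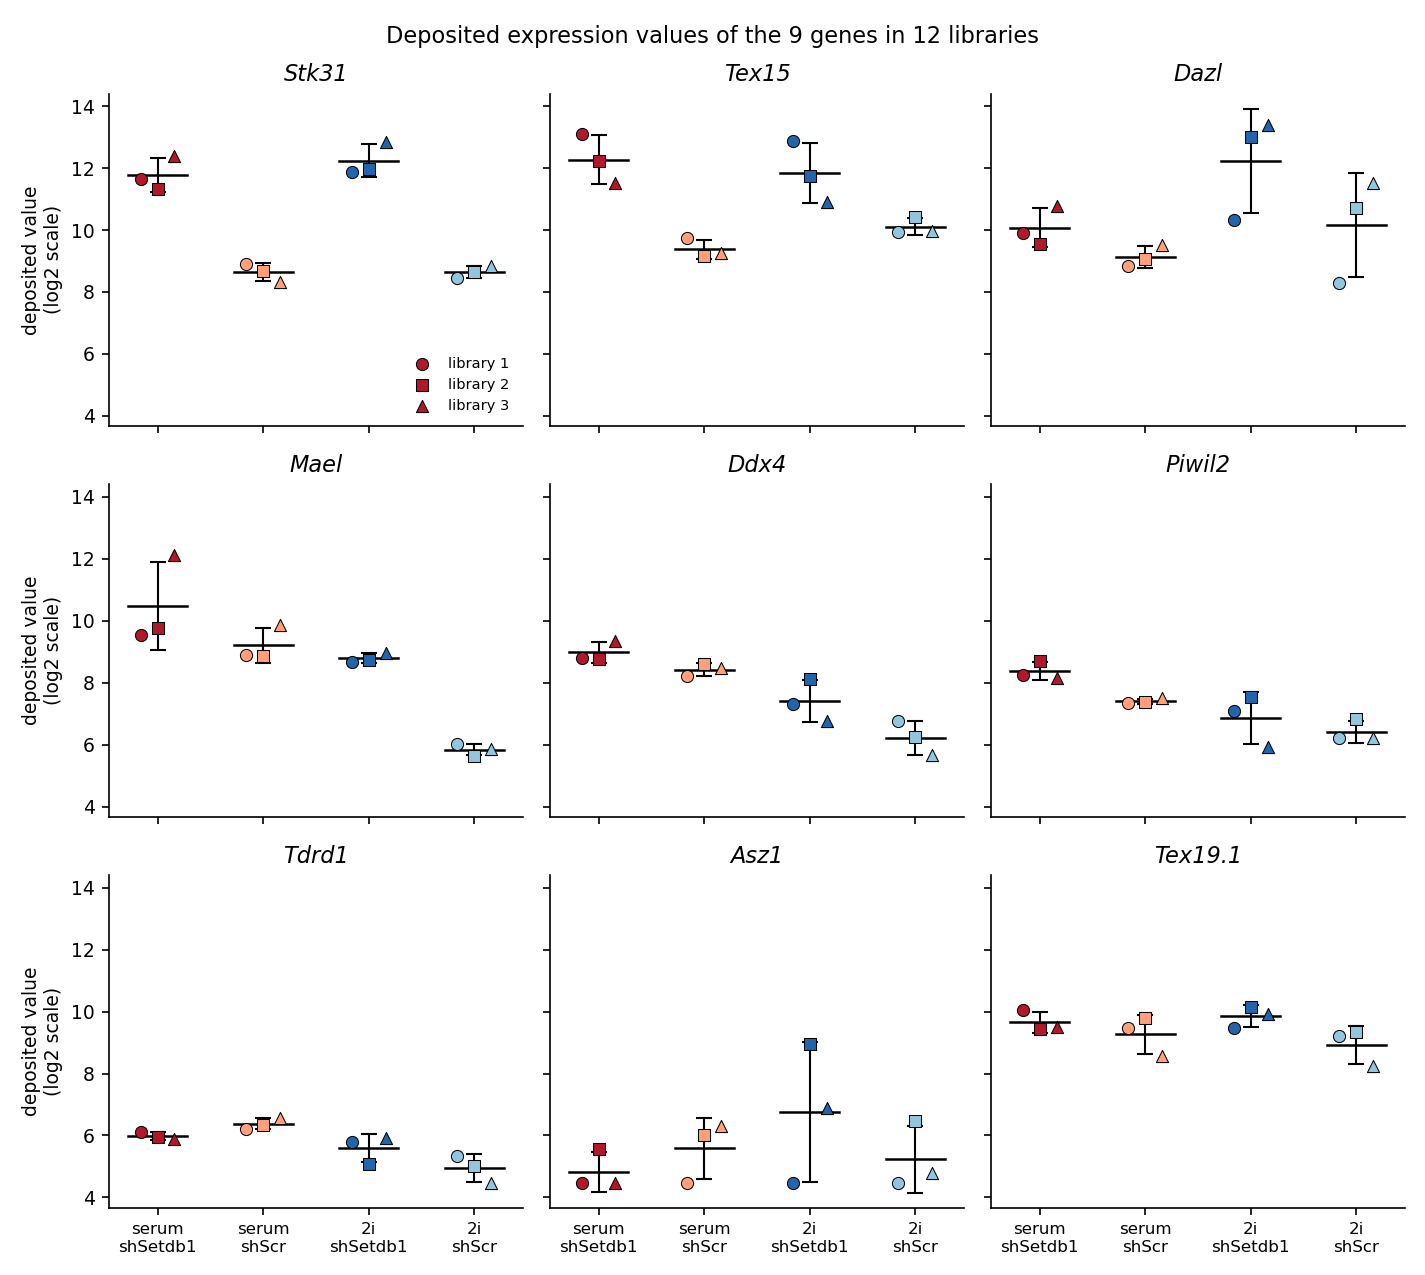
Deposited log2-scale value (y axis) of each of the 9 genes in the 4 groups (x axis: shSetdb1 left of shScr, serum then 2i). Symbols are the 3 libraries, the horizontal line is the group mean and the bar is ± 1 SD. Stk31 separates shSetdb1 from shScr in both media, and the Mael points of 2i shScr lie below those of the other 3 groups.

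The first comparison asked which of the genes differed between shSetdb1 and shScr cells in each medium. Of the 9 genes, 2 rose in serum (Stk31 and Tex15) and 2 rose in 2i (Stk31 and Mael), and none fell in either medium. A gene was called at an adjusted p under 0.05 in limma, fitted to all 14487 genes with Benjamini-Hochberg adjustment. Over all genes 87 rose in serum (0.601%) and 7 fell (0.0483%), and 176 rose in 2i (1.21%) and 8 fell (0.0552%). At an unadjusted p under 0.05 in limma there were 4 of the 9 in serum and 6 in 2i. Of all 14487 genes there were 738 in serum and 1067 in 2i. The median log2 change of the 9 genes was 0.94 in serum, against -0.0015 for all genes, and 1.52 in 2i, against 0.01. With the library number as a block shared by all 4 groups, 149 genes rose and 22 fell in serum. The check of pairing allows such a block between the serum groups only, and not in 2i. With a block within each medium, 211 genes passed in serum. The serum libraries of shSetdb1 all lay above those of shScr for 5 of the 9 genes (Stk31, Tex15, Dazl, Ddx4 and Piwil2), as they did for 6.12% of all genes. In 2i this held for 4 of the 9 (Stk31, Tex15, Mael and Tex19.1), and for 6.33% of all genes.

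Stk31 encodes a Tudor-domain protein with a kinase-like domain that is made in germ cells. It had 3157, 2504 and 5335 normalised reads in serum shSetdb1 libraries, against 441, 368 and 281 in serum shScr libraries. In 2i it had 3736, 4004 and 7372 in shSetdb1, against 311, 361 and 419 in shScr. The lowest knockdown library was thus well above the highest control library in both media. Stk31 averaged 3665 ± 1482 normalised reads in shSetdb1 and 363 ± 80 in shScr in serum (SD, n = 3 each), a 10.1-fold difference, and 5038 ± 2026 and 364 ± 54 in 2i, a 13.9-fold difference. The log2 change was 3.14 ± 0.33 in serum (SE; limma adjusted p = 0.000114) and 3.58 ± 0.33 in 2i (adjusted p = 2.21e-05). In each knockdown group the highest value was in the library with the highest structural RNA share, 42.4% in serum and 69.3% in 2i. The call held in each of 22 alternative analyses in either medium, the fit with this share as a covariate included.

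Tex15 encodes a large testis protein needed for meiotic recombination and for piRNA-directed transposon methylation. Its normalised reads were 8682, 4709 and 2896 in serum shSetdb1 libraries, against 808, 524 and 576 in serum shScr. In 2i they were 7435, 3387 and 1889 in shSetdb1, against 935, 1335 and 964 in shScr. The knockdown libraries lay above the controls in both media, but their own spread was wide, and the library with the highest structural RNA share was the lowest of its knockdown group both times. In serum Tex15 averaged 5429 ± 2959 in shSetdb1 and 636 ± 151 in shScr (8.54-fold), with a log2 change of 2.89 ± 0.45 (limma adjusted p = 0.00552). In 2i it averaged 4237 ± 2869 in shSetdb1 and 1078 ± 223 in shScr (3.93-fold), with a log2 change of 1.73 ± 0.45 that did not pass (adjusted p = 0.0949). Without the third 2i shSetdb1 library the 2i change passed (2.19, adjusted p = 0.0293), as it did with the structural RNA share as a covariate (1.82, adjusted p = 0.000963). Without the first 2i shSetdb1 library, the highest of its group, the ratio was 2.45-fold and the change smaller (1.22, adjusted p = 0.159). Over 22 alternatives its adjusted p ran between 0.000963 and 0.349.

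Mael encodes maelstrom, an HMG-box protein of nuage needed for transposon silencing in the germ line. In 2i it had 369, 380 and 459 normalised reads in shSetdb1 libraries, against 28.2, 15.9 and 22.3 in shScr libraries. These groups were far apart and each was narrow. Mael averaged 403 ± 49 in shSetdb1 and 22.1 ± 6.2 in shScr in 2i, an 18.2-fold difference, with a log2 change of 2.96 ± 0.52 (limma adjusted p = 0.00698). The call held in 21 of 22 alternatives and was lost when limma-voom was run on the recovered reads (log2 change 4.17, adjusted p = 0.0894, the highest over the alternatives). In serum Mael had 709, 819 and 4384 normalised reads in shSetdb1, against 430, 428 and 886 in shScr. The ranges overlapped, and 1 knockdown library set the mean: the 3.39-fold ratio became 1.31-fold without the third serum shSetdb1 library. That library had 42.4% structural RNA, against 16.02% and 15.3% in the other 2. The part of this share in the value of that library was not tested. The serum change of Mael did not pass (1.27 ± 0.52, limma adjusted p = 0.806). It passed in 0 of 22 alternatives, the fit with the structural RNA share as a covariate included.

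Dazl encodes an RNA-binding protein that promotes translation of germ cell mRNAs. It had 1224, 8226 and 10707 normalised reads in 2i shSetdb1 libraries, against 271, 1633 and 2874 in 2i shScr. In serum it had 923, 703 and 1709 in shSetdb1, against 412, 487 and 694 in shScr. The 2i groups overlapped because library 1 was several times lower than libraries 2 and 3 in both of them. The structural RNA share was likewise lowest in library 1, at 19.8%, 55.3% and 69.3% in 2i shSetdb1 and 31.8%, 38.7% and 64.3% in 2i shScr. The log2 changes, 2.07 ± 0.77 in 2i (limma adjusted p = 0.422) and 0.94 ± 0.77 in serum (adjusted p = 1), did not pass. In 2i the change passed without the first shSetdb1 library (3.03, adjusted p = 0.0185) and with the structural RNA share as a covariate (1.88, adjusted p = 0.00658). It was smaller without the first 2i shScr library (1.13, adjusted p = 0.993) and without the third 2i shSetdb1 library (1.49, adjusted p = 1). Over its 22 alternatives the adjusted p in 2i ran between 0.000118 and 1.

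**Figure D2:**
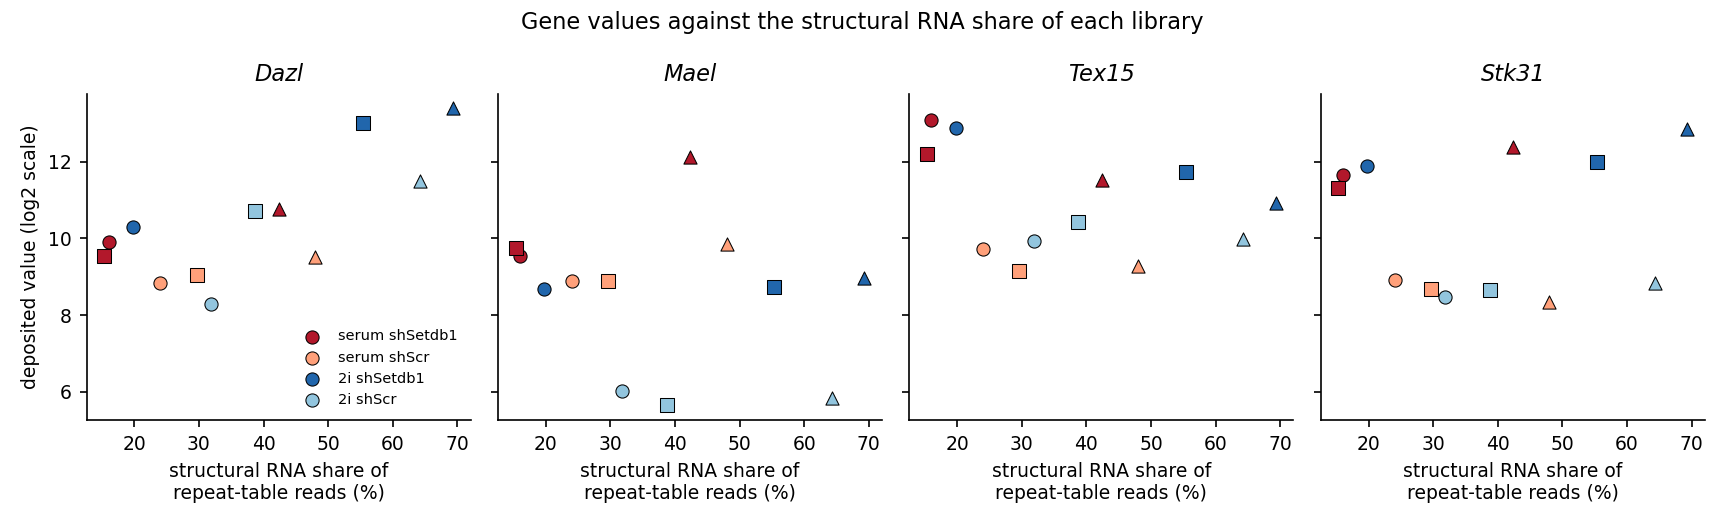
Deposited log2-scale value (y axis) against the structural RNA share of the repeat-table reads in percent (x axis) for Dazl, Mael, Tex15 and Stk31, 1 point per library with the symbols of library 1 (circle), 2 (square) and 3 (triangle). Dazl in 2i is lowest at the lowest share of each group, the single high Mael point in serum shSetdb1 has a share of 42.4%, and Stk31 keeps its shSetdb1 points above its shScr points along the whole axis.

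The remaining 5 genes did not pass in either medium on knockdown. Ddx4, the DEAD-box helicase of nuage also called Vasa, had 406, 392 and 615 normalised reads in serum shSetdb1, against 253, 343 and 314 in serum shScr, and 118, 235 and 69.1 in 2i shSetdb1, against 69.3, 38.6 and 16.4 in 2i shScr. The serum groups did not overlap, and the 2i groups overlapped in 1 library of each. Its log2 changes were 0.55 ± 0.38 in serum (limma adjusted p = 1) and 1.17 ± 0.38 in 2i (adjusted p = 0.268). Piwil2, the PIWI Argonaute MILI, which binds piRNAs, had 263, 377 and 245 normalised reads in serum shSetdb1, against 121, 124 and 139 in serum shScr. In 2i it had 96.1, 145 and 24.9 in shSetdb1, against 36.8, 73.8 and 36.4 in shScr. Piwil2 was separated in serum, where it averaged 2.31 times the control, and overlapped in 2i. Its changes were 0.98 ± 0.38 (adjusted p = 0.748) and 0.44 ± 0.38 (adjusted p = 0.888).

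Tex19.1, a germ and ES cell protein that restrains retrotransposons, had 1007, 646 and 678 normalised reads in serum shSetdb1, against 659, 837 and 336 in serum shScr, and 662, 1100 and 935 in 2i shSetdb1, against 551, 610 and 258 in 2i shScr. Its groups overlapped in serum and were separate in 2i, with changes of 0.39 ± 0.37 in serum (limma adjusted p = 1) and 0.92 ± 0.37 in 2i (adjusted p = 0.525). Its paralog Tex19.2 lies beside it, and reads shared between them are counted in a way not given in the sources used here. Tdrd1, a Tudor-domain scaffold that binds MILI, had at most 56.7 normalised reads in any library. It had 32.7, 26.1 and 23.0 in serum shSetdb1, against 36.9, 43.5 and 56.7 in serum shScr, where the knockdown libraries were all lower but the change did not pass (-0.40 ± 0.33, adjusted p = 1). In 2i it had 20.0, 4.06 and 24.9 in shSetdb1, against 8.67, 3.45 and 0 in shScr (0.65 ± 0.33, adjusted p = 0.754).

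Asz1 encodes GASZ, an ankyrin-repeat protein on the mitochondrial surface that holds nuage in place. It had 0, 451 and 77.4 normalised reads in 2i shSetdb1, against 0, 50.3 and 1.17 in 2i shScr, and 0, 13.5 and 0 in serum shSetdb1, against 0, 28.4 and 40.6 in serum shScr. The first library of each of the 4 groups held 0 reads, which allows up to 3 reads in each, and 1 library of 12 held 444 of the gene's reads. The changes, -0.77 ± 0.86 in serum (limma adjusted p = 1) and 1.52 ± 0.86 in 2i (adjusted p = 0.79), did not pass, and the 2i value was 0.43 without the second shSetdb1 library.

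**Figure D3:**
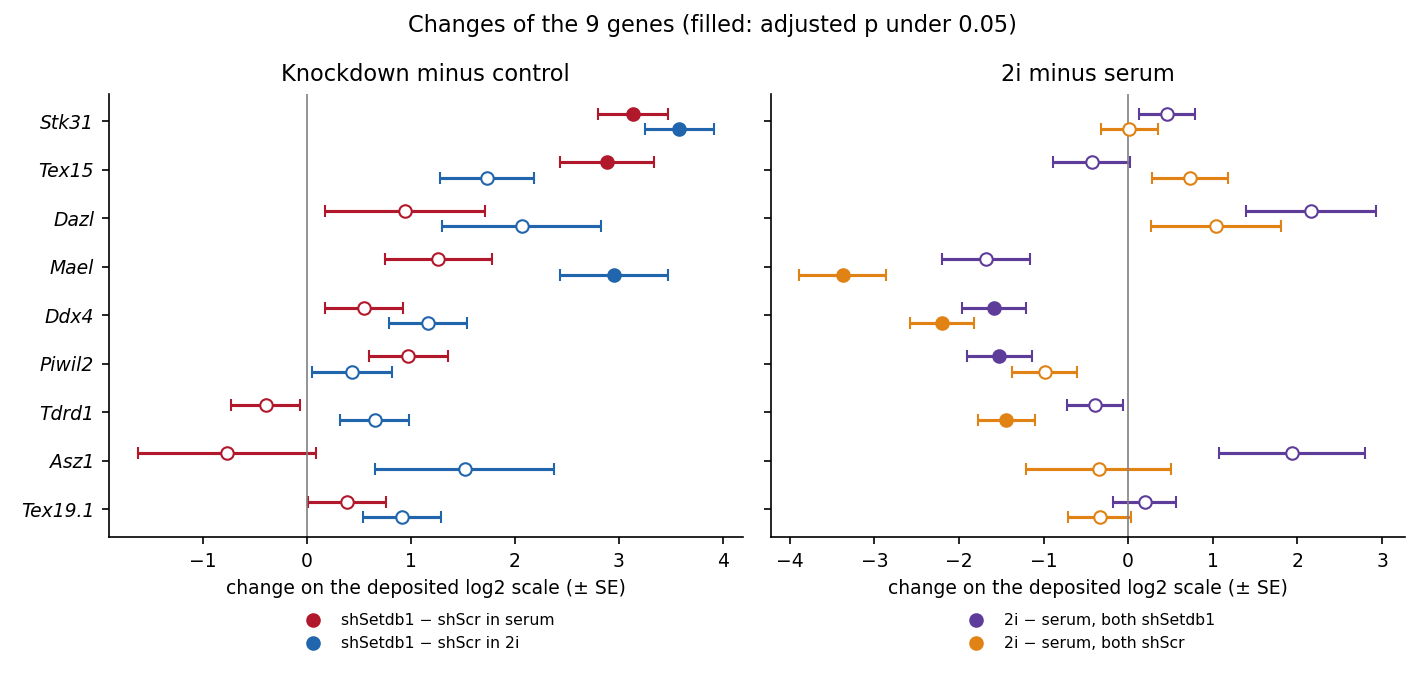
Changes of the 9 genes on the deposited log2 scale (x axis, ± SE from limma), shSetdb1 minus shScr on the left and 2i minus serum on the right. Filled points passed an adjusted p of 0.05. Stk31 lies at 3.14 in serum and 3.58 in 2i, and Mael, Ddx4 and Tdrd1 lie below 0 in the shScr comparison of media.

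Whether the knockdown changed a gene differently in the 2 media was tested as the difference of the 2 changes, 2i minus serum. No member and no other gene passed (0 of 14487 genes, 0%), in limma or in limma-voom on the recovered reads. At an unadjusted p under 0.05, 404 genes did in limma, among them Mael (difference 1.69 ± 0.73, unadjusted p = 0.0346) and Tdrd1 (1.05 ± 0.47, unadjusted p = 0.0418). For Stk31 the difference was 0.44 ± 0.47 and for Tex15 -1.16 ± 0.64. The calls of Mael in 2i and of Tex15 in serum are therefore not shown to be particular to that medium.

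The second comparison set 2i against serum with the same hairpin. Both media comparisons use the same libraries as the knockdown comparisons, so their values are not independent of those above. In shScr cells, 3 of the 9 genes were lower in 2i (Mael, Ddx4 and Tdrd1) and none was higher. Over all genes 273 fell in 2i (1.88%) and 251 rose (1.73%). All 2i shScr libraries lay below all serum shScr libraries for 4 of the 9 (these 3 and Piwil2), as for 12.8% of all genes. The median log2 change of the 9 was -0.35, against -0.05 for all genes.

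Mael averaged 22.1 ± 6.2 normalised reads in 2i shScr and 581.5 ± 264 in serum shScr, 26.3-fold less, and its log2 change was -3.37 ± 0.52 (limma adjusted p = 0.00279). Ddx4 averaged 41.5 ± 26.6 in 2i shScr and 303 ± 46 in serum shScr, 7.32-fold less, with a log2 change of -2.20 ± 0.38 (adjusted p = 0.00498). The Ddx4 ratio was 11.0-fold without the first 2i shScr library. Both calls held in all 21 alternatives. Tdrd1 averaged 4.04 ± 4.36 in 2i shScr and 45.7 ± 10.1 in serum shScr, with a log2 change of -1.44 ± 0.33 (adjusted p = 0.0268). Its 2i shScr libraries held 12, 5 and 0 reads, the 11.3-fold ratio was 26.5-fold without the first of them, and the call was lost in 7 of 21 alternatives, with an adjusted p of up to 0.147. Stk31 had nearly the same mean in both media, 364 ± 54 in 2i shScr and 363 ± 80 in serum shScr, with a log2 change of 0.01 ± 0.33 (adjusted p = 0.995). Tex15 averaged 1078 ± 223 in 2i shScr and 636 ± 151 in serum shScr, and its change of 0.73 ± 0.45 (adjusted p = 0.453) passed in 1 of 21 alternatives, with the structural RNA share as a covariate (1.04, adjusted p = 0.0401, the lowest, against up to 0.678).

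In shSetdb1 cells, 2 of the 9 genes were lower in 2i (Ddx4 and Piwil2) and none was higher. Over all genes 232 fell (1.6%) and 311 rose (2.15%). The 2i shSetdb1 libraries all lay below the serum shSetdb1 libraries for 3 of the 9 (Mael, Ddx4 and Piwil2), as for 10.1% of all genes. Ddx4 averaged 141 ± 85 normalised reads in 2i shSetdb1 and 471 ± 125 in serum shSetdb1, 3.35-fold less (log2 change -1.58 ± 0.38, limma adjusted p = 0.031). This ratio was 5.02-fold without the second 2i shSetdb1 library, and the call was lost in 6 of 21 alternatives, with an adjusted p of up to 0.143. Piwil2 averaged 88.7 ± 60.5 in 2i shSetdb1 and 295 ± 71 in serum shSetdb1, 3.33-fold less (-1.52 ± 0.38, adjusted p = 0.0396), and lost its call in 11 of 21 alternatives, with an adjusted p of up to 0.193. With the structural RNA share as a covariate the change of Piwil2 was -1.27 (adjusted p = 0.0933). The calls of both genes were lost without the third 2i shSetdb1 library and without any 1 of the 3 serum shSetdb1 libraries. Mael averaged 403 ± 49 in 2i shSetdb1 and 1971 ± 2091 in serum shSetdb1 (-1.68 ± 0.52, adjusted p = 0.0863). Dazl averaged 6719 ± 4918 in 2i shSetdb1 and 1111 ± 529 in serum shSetdb1 (2.16 ± 0.77, adjusted p = 0.141).

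Levels between genes were set side by side as normalised reads per kilobase of merged exons, which span between 1733 bases (Mael) and 8405 bases (Tex15). In serum shSetdb1 cells the order was Mael (1137 ± 1207), Stk31 (1132 ± 458), Tex15 (646 ± 352), Tex19.1 (445 ± 115), Dazl (364 ± 173), Ddx4 (156 ± 41), Piwil2 (60.0 ± 14.5), Tdrd1 (5.01 ± 0.91) and Asz1 (2.59 ± 4.48). In serum shScr cells Tex19.1 (350 ± 146) and Mael (336 ± 152) led, followed by Dazl (174 ± 48), Stk31 (112 ± 25), Ddx4 (101 ± 15), Tex15 (75.7 ± 17.95) and Piwil2 (26.0 ± 2.0), with Asz1 (13.3 ± 12.01) and Tdrd1 (8.40 ± 1.85) last. In 2i shSetdb1 cells Dazl (2203 ± 1612) and Stk31 (1556 ± 626) stood above Tex19.1 (515 ± 127) and Tex15 (504 ± 341), then Mael (232 ± 28), Asz1 (101 ± 139), Ddx4 (46.7 ± 28.2), Piwil2 (18.1 ± 12.3) and Tdrd1 (3.00 ± 2.00). In 2i shScr cells Dazl (522 ± 427), Tex19.1 (271 ± 108), Tex15 (128 ± 27) and Stk31 (112 ± 17) were followed by Ddx4 (13.8 ± 8.8), Mael (12.8 ± 3.6), Piwil2 (9.97 ± 4.37), Asz1 (9.89 ± 16.6) and Tdrd1 (0.742 ± 0.802). Of the 32 neighbouring pairs in these 4 orders, 25 had overlapping ranges of mean ± SD. The 7 that did not were Ddx4 over Piwil2 and Piwil2 over Tdrd1 in serum shSetdb1, Tex15 over Piwil2 in serum shScr, Stk31 over Tex19.1 and Piwil2 over Tdrd1 in 2i shSetdb1, and Tex19.1 over Tex15 and Stk31 over Ddx4 in 2i shScr. In bulk RNA, a change in the number of expressing cells and a change in the RNA per cell cannot be told apart.

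Other genes of the pathway were read from a list. Of 23 further piRNA pathway genes, 20 were tested and none passed on knockdown in either medium, in limma or in limma-voom. At an unadjusted p under 0.05 in limma, 738 of all 14487 genes stood in serum and 1067 in 2i. Of the 20 genes 1 did in serum and 4 did in 2i. Their median log2 change was 0.61 in serum and 0.41 in 2i. The best expressed per kilobase were Morc1, Rnf17 and Prmt5. Rnf17, a Tudor-domain protein of germ cells, averaged 4240 normalised reads in serum shSetdb1 and 2731 in serum shScr, with a change of 0.65 ± 0.32 (adjusted p = 1). Morc1, an ATPase that silences transposons in the male germ line, averaged 4826 in 2i shSetdb1 and 4135 in 2i shScr (0.19 ± 0.32, adjusted p = 0.939). Prmt5, the arginine methyltransferase that marks PIWI proteins for Tudor binding, averaged 1002 in 2i shSetdb1 and 1334 in 2i shScr (-0.39 ± 0.29, adjusted p = 0.861). Tdrkh, the Tudor protein of mitochondria that takes part in piRNA trimming, was lower in 2i among shSetdb1 cells, at 9.22, 27.4 and 0 normalised reads in 2i and 86.0, 182 and 165 in serum (-2.22 ± 0.50, adjusted p = 0.0225, lost in 4 of 21 alternatives).

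Of 20 other germ cell RNA genes, 17 were tested and 1 rose in both media, Rbmy1a1, which encodes a Y-linked RNA-binding protein of spermatogenic cells. It had 456, 1571 and 1355 normalised reads in serum shSetdb1, against 0, 0.888 and 0 in serum shScr, and 797, 735 and 1833 in 2i shSetdb1, against 0, 1.38 and 7.04 in 2i shScr. The control libraries were at or near 0 in both media. With 3878 reads against 1, the serum ratio was 3262 (95% exact interval 585 to 128879, covering counting error only), and the log2-scale changes were 5.47 ± 0.45 (limma adjusted p = 8.51e-06) and 5.22 ± 0.45 in 2i (adjusted p = 1.63e-05). Rbmy1a1 has near-identical copies on the Y chromosome, so the reads may belong to more than 1 of them. Over all genes 0.601% rose in serum and 1.21% in 2i. At an unadjusted p under 0.05 in limma, 1 of the 17 stood in serum and 6 in 2i. Of all 14487 genes 738 did in serum and 1067 in 2i. The median change of the 17 was 0.21 in serum and 0.52 in 2i. Between media, Patl2, an oocyte RNA-binding protein, was higher in 2i in shScr cells (1.79 ± 0.38, adjusted p = 0.0176) and in shSetdb1 cells (2.25 ± 0.38, adjusted p = 0.00487). Meioc, listed under its older symbol Gm1564 and needed for meiotic entry and progression, was lower in 2i in shScr cells (-1.65 ± 0.38, adjusted p = 0.0249) and in shSetdb1 cells (-1.43 ± 0.38, adjusted p = 0.0478). Ddx25, a testis helicase, was lower in 2i in shSetdb1 cells (-2.29 ± 0.50, adjusted p = 0.018). The first of these calls of Patl2 was lost in 4 of 21 alternatives, those of Gm1564 in 5 and 14, and that of Ddx25 in 4, mostly on leaving out 1 library.

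**Figure D4:**
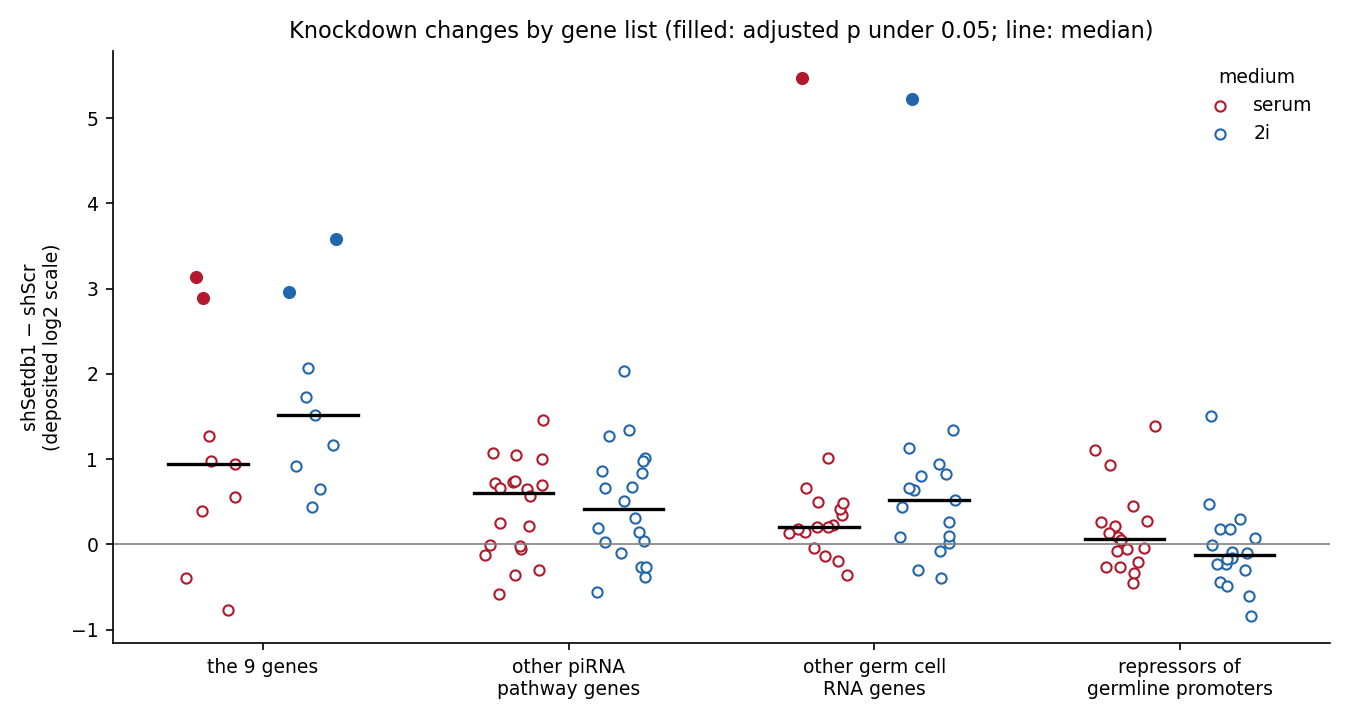
Change of shSetdb1 minus shScr on the deposited log2 scale (y axis) for every tested gene of 4 lists (x axis), in serum (red) and 2i (blue). Filled points passed an adjusted p of 0.05 and the black lines are medians. The medians of the 9 genes are 0.94 and 1.52, and the filled pair in the third list is Rbmy1a1.

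Of 18 genes known to repress germline promoters, all were tested and none passed on knockdown in limma or in limma-voom. In limma 2 were at an unadjusted p under 0.05 in each medium, against 738 of all 14487 genes in serum and 1067 in 2i. Trim28, the KRAB zinc finger corepressor that recruits SETDB1, averaged 13164 normalised reads in serum shSetdb1 and 15541 in serum shScr (-0.27 ± 0.44, adjusted p = 1). Hells, a chromatin remodeller needed for DNA methylation, had a change of 0.27 ± 0.44 in serum (adjusted p = 1), and Rnf2, a Polycomb ubiquitin ligase, had -0.46 ± 0.30 (adjusted p = 1). Dnmt3a, a de novo DNA methyltransferase, was lower in 2i than in serum in shScr cells, at 293, 281 and 114 normalised reads in 2i and 1335, 1473 and 781 in serum (-2.23 ± 0.46, adjusted p = 0.0144). This call was lost in 3 of 21 alternatives, without serum shScr library 1 or 2 or 2i shScr library 3, with an adjusted p of up to 0.087. It was also lower in shSetdb1 cells (-2.85 ± 0.46, adjusted p = 0.00387).

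Markers of other cell types were read beside these changes. ES cell markers (9 genes) summed to 42249 to 82120 normalised reads in serum shSetdb1, 60967 to 82760 in serum shScr, 55262 to 78743 in 2i shSetdb1 and 62938 to 78161 in 2i shScr. None passed on knockdown in limma or limma-voom. In limma 5 of 9 were at an unadjusted p under 0.05 in serum, where 738 of all 14487 genes were. In 2i 2 of 9 were, against 1067 of all genes. In serum the fitted change of each of the 9 was below 0, between -1.08 and -0.07, with a median of -0.70, against -0.0015 for all genes. In 2i their median was -0.20. None of 8 primordial germ cell markers passed on knockdown by either tool, with 2 at an unadjusted p under 0.05 in limma in serum and 1 in 2i. The smallest limma adjusted p was 0.194 in serum and 0.185 in 2i. Their median log2 change was -0.20 in both media, and their highest was 3.15 in serum and 2.89 in 2i. Their sums were 996 to 3436 in serum shSetdb1, 977 to 2534 in serum shScr, 3501 to 12414 in 2i shSetdb1 and 2637 to 6034 in 2i shScr. These sums rest largely on few genes. In their highest libraries Dppa3 alone had 9966 normalised reads and Kit 3270, both named after their values were seen. Of 10 spermatogenic markers, 4 were at 0 in all libraries (Acrv1, Tnp2, Prm1 and Prm2). The 4 tested were Sall4, Stra8, Sycp3 and Sycp1, and none passed on knockdown by either tool. At an unadjusted p under 0.05 in limma there were 0 in serum and 2 in 2i. Their median log2 change was 0.86 in serum (between -0.03 and 1.13) and 1.59 in 2i (between -0.45 and 2.19). The medians of the 9 genes were 0.94 and 1.52. The sums of all 10 spermatogenic markers were 4088 to 7473 in serum shSetdb1, 3487 to 4199 in serum shScr, 4072 to 6530 in 2i shSetdb1 and 2093 to 2948 in 2i shScr. Sycp3 and Sall4 made up most of these sums, with 5761 and 3137 normalised reads in their highest libraries. The next highest, Sycp1, reached 807.1. Of 7 oocyte markers, Zp1 and Zp2 were at 0 throughout, and 2 were tested, Zp3 and Figla. Neither passed on knockdown by either tool, with 0 at an unadjusted p under 0.05 in limma in each medium. In their highest libraries Zp3 had 119 normalised reads and Figla 47.9. The 7 oocyte markers summed to 31.95 to 71.91 in serum shSetdb1 and 20.62 to 39.98 in serum shScr. In 2i they summed to 19.29 to 121.4 in shSetdb1 and 19.95 to 78.72 in shScr. Fibroblast markers (8 genes) summed to 130 to 802 in 2i shSetdb1, against 43.4 to 57.2 in 2i shScr, and to 76.8 to 107 in serum shSetdb1, against 48.9 to 219 in serum shScr. Of the 3 tested, 1 rose on knockdown in 2i in limma, and 1 of the 3 passed in limma-voom. The gene called in limma was Lum (4.03 ± 0.48, adjusted p = 0.000236), named after its values were seen, with 736, 102 and 542 normalised reads in 2i shSetdb1, against 0, 2.76 and 0 in 2i shScr. It made up most of the 2i shSetdb1 sums, and the other tested markers, Thy1 and Pdgfrb, had changes of -0.15 and -0.35 (adjusted p = 0.961 and 0.915). Of 7 markers of the 2-cell stage, 5 were found among the deposited genes, and all 5 were tested. On knockdown their median log2 change was 2.62 in 2i and 0.18 in serum. At an unadjusted p under 0.05 in limma there were 5 in 2i and 0 in serum. By adjusted p in limma 2 of the 5 rose on knockdown in 2i, against 1.21% of all genes. All 5 were lower in 2i than in serum among shScr cells, against 1.88% of all genes. In limma-voom 0 of the 5 and 3 of the 5 passed in these comparisons. The part of these marker lists in the results was not tested.

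The neighbours of the 9 genes on the chromosome did not pass on knockdown. Of 18 protein-coding neighbours in RefSeq, 13 were tested and 0 passed in either medium, in limma or in limma-voom. At an unadjusted p under 0.05 in limma, 738 of all 14487 genes stood in serum and 1067 in 2i. Of the 13 neighbours 2 did in each medium. In serum the largest change was that of Fam221a (listed as D330028D13Rik), beside Stk31, at 1.33 ± 0.31 (limma adjusted p = 0.0883), with 1.12 ± 0.31 in 2i (adjusted p = 0.139). In 2i that of Tex19.2, beside Tex19.1, was 1.13 (adjusted p = 0.523). No exon bases of the 9 genes are shared with another gene in the GENCODE annotation. As a description over 12 libraries, which includes the differences between groups and in depth, the 5 genes whose values ran most like the mean of the 9 were Pramef8 (Pearson r = 0.94), Mthfd2l (0.937), Acot2 (0.935), Sycp2 (0.921) and Usp26 (0.919). The 9 did not share 1 profile, with r of 0.88 between Mael and Ddx4 and -0.42 between Dazl and Tdrd1. The 5 were picked on the same values that give their knockdown changes. Those changes and their adjusted p-values in limma are therefore a description, and not a separate result. Of these, Sycp2, a component of the meiotic chromosome axis, averaged 126 normalised reads in 2i shSetdb1 and 12.2 in 2i shScr (log2 change 1.86 ± 0.34, adjusted p = 0.00953), and 202 in serum shSetdb1 and 66.1 in serum shScr (1.17 ± 0.34, adjusted p = 0.261). Usp26, a ubiquitin protease of the testis, rose in both media, by 2.16 ± 0.31 in serum (adjusted p = 0.00224) and 2.51 ± 0.31 in 2i (adjusted p = 0.000302). Acot2, an acyl-CoA thioesterase, rose by 1.93 ± 0.32 in serum (adjusted p = 0.00863, and 0.0583 without the first serum shScr library) and 2.37 ± 0.32 in 2i (adjusted p = 0.000885). Pramef8 rose in 2i (2.30 ± 0.27, adjusted p = 0.000224). Its serum change, 1.07 ± 0.27, did not pass (adjusted p = 0.135), and passed with the library number as a block (adjusted p = 0.0477). Over 22 alternatives the serum adjusted p of Pramef8 ran between 0.0338 and 0.485. Mthfd2l rose in 2i (1.42 ± 0.29, adjusted p = 0.0225, lost in 8 of 22 alternatives) and had a serum change of 1.03 ± 0.29 (adjusted p = 0.238).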

How the data were processed

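Per the labels, total RNA of E14 cells was made into directional rRNA-depleted libraries. Per the submitters' processing notes, Trim Galore 0.3.3, TopHat2 2.0.9, DESeq2 and the mm9 build were used. How reads were counted (tool, annotation, strand, multi-mapping) is not given in the sources used here. The deposited values are log2-scale variance-stabilised expression, per gene and per repeat. Because every value returned a whole read count (100% within 0.01 reads), reads and size factors were recovered, and normalised reads are reads divided by the size factor.

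limma 3.58.1 (R 4.3.3) was fitted to the deposited log2 values of all 12 libraries with a mean per group (8 residual degrees of freedom), a mean-variance trend, and genes averaging at least 0.5 above the table's lowest value. This scale understates the change of low genes. The 5 comparisons were each adjusted over all tested genes. The test was checked on simulated data. The simulated libraries were independent, with the same dispersion for every gene and no effect of library number or structural RNA. Only genes with higher means were changed. The check therefore does not cover such effects or changes of genes near 0. Library numbers were compared as pairs. Deviations of same-numbered libraries correlated at 0.582, 0.234 and 0.51 between the serum groups, and at 0.456, 0.057 and 0.524 between the 2i groups. By these values the numbers were taken to pair the serum libraries, and not those in 2i. The fit described above held no block in either medium, so its adjusted p-values take no account of pairing. The block was run only as an alternative. Merged exon lengths come from GENCODE M21.

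The 9 genes and the lists were chosen with earlier results of these data known. Named genes were the 9, Setdb1, every gene of 3 lists that passed in a comparison, otherwise the 3 of each list with the highest level per length, and the 5 genes most like the mean of the 9. Alternatives covered filtering, centring, quantile normalisation, the block, a structural RNA covariate, limma-voom and leaving out each library.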

Additional observations from a re-analysis of the deposited data

How the results depend on the processing

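Of the results on the 9 genes, the rise of Stk31 in both media, the rise of Tex15 in serum and the lower Mael and Ddx4 in 2i shScr kept their direction and their call in every alternative tried. In serum 2 members passed in each alternative, and for the difference of the changes 0 did. With the replicate block, 171 genes passed in serum and 321 in 2i, against 94 and 184, and 4 members in place of 2 passed in 2i, where Dazl and Tex15 joined Stk31 and Mael. Between media the block gave 1351 genes in shScr cells, against 524, and 1583 in shSetdb1 cells, against 543, with 5 members in the second, against 2. The block within medium gave 211 genes in serum, 425 genes and 4 members in 2i, and 2 genes for the difference; it was not run between media, where the block is nested. The library numbers pair the serum groups by the check in the processing notes. In the other comparisons libraries 1 and 3 were also correlated, at 0.456 and 0.524 between the 2i groups. Between media they stood at 0.497 and 0.439 in shSetdb1 cells and 0.232 and 0.219 in shScr cells. Library 2 did not follow, at 0.057, 0.005 and -0.177 in the same order. What a shared number stands for is not given in the sources used here.

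With the structural RNA share as a covariate, 203 genes passed in serum, 364 genes and 4 members in 2i, and 1184 genes in shScr cells between media, with 4 members in place of 3 as Tex15 joined (1.04). limma-voom on the recovered reads gave 114 genes and 1 member (Stk31) in 2i, and 240 genes and 0 members between media in shSetdb1 cells. With only the 6 libraries compared these were 88 genes in 2i, and 195 genes and 0 members between media in shSetdb1 cells. Without the filter 1 member passed in that last comparison. Values near 0 changed sign: Stk31 between media in shScr cells was -0.0083 after median centring and -0.1392 with the covariate, and Tex15 between media in shSetdb1 cells was 0.2314 with the covariate. The cause was not tested in any of these.

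Leaving out each library in turn gave 37 (without serum shScr library 1) to 116 genes in serum, 99 (without 2i shScr library 1) to 253 genes in 2i, and 0 to 1 genes for the difference. Between media it gave 171 (without 2i shScr library 3) to 773 genes in shScr cells, and 144 (without serum shSetdb1 library 2) to 1522 genes (without 2i shSetdb1 library 1), with 0 to 4 members, in shSetdb1 cells. Across the same runs Stk31 in shScr cells between media lay between -0.1415 and 0.1483, Asz1 between -0.9682 and 0.0413, Tex19.1 between -0.6862 and 0.0163, and Tex15 in shSetdb1 cells between -0.9456 and 0.0307. Of 1439 single-gene values under an alternative, 1343 kept their direction and call, 69 lost a call, 18 gained one and 9 changed sign. The libraries held between 0 and 53 reads of Tdrd1, so its ratios carry a large counting error. For Asz1 0 reads were found in the deepest library, of 15509401 gene reads, and 444 in one of 11360663.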
